A study of Mus musculus with 8 samples.

Results

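Interferon-stimulated genes were compared between regulatory T cells (Tregs) that carry TNF receptor 2 (TNFR2) on their surface and Tregs that lack it. The genes were a list of 52 mouse symbols known as targets of interferons, and they were found in the RNA sequencing table by mapping its Ensembl identifiers to symbols. All 52 were among the 20172 identifiers of the table. Of these, 51 had a mean of at least 10 normalized counts over the 8 libraries and were tested along with 13990 genes in all. The gene left out, *Ifitm3*, is described with the antiviral effectors.

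Both populations came from spleens of adult mice of the genotype Foxp3 YFP-cre, in which the *Foxp3* locus drives Cre recombinase and a yellow fluorescent protein, so that fluorescence marks cells that express Foxp3. CD4 T cells were enriched, and the fluorescent cells were sorted into TNFR2+ and TNFR2- Tregs. The labels name no treatment, and every library carries the same allele. There were 4 libraries of each population, numbered as replicates 1 to 4. Nothing in the labels says whether a library came from a single mouse or a pool, or whether libraries of a group came from separate mice, so p-values measure the spread between these libraries, which may be technical.

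Values are normalized counts per gene, as the authors deposited them. They summed to between 9576920 and 11492762 per library, and estimated depths ran from 9615000 to 12110000 reads for TNFR2+ and from 9073000 to 10970000 reads for TNFR2- libraries. Replicate 3 of TNFR2- Tregs stood apart on the second principal component of all genes tested (score 91.3, against -39.1 to 18.0 in the other 7 libraries), and counts are given below with and without it. The series describes the mice as female, while the methods name mice of both sexes for the study as a whole. The Y-linked genes *Kdm5d* (122 to 257) and *Uty* (72.2 to 212) had counts in all 8 libraries beside *Xist* (10228 to 18154), and the cause was not tested. The sort was seen in the RNA of *Tnfrsf1b*, the gene of TNFR2. It had 3148, 1840, 2631 and 2383 normalized counts in TNFR2+ replicates 1 to 4, and 1266, 1563, 1177 and 1277 in TNFR2- replicates 1 to 4. The groups did not overlap, and the log2 fold change was 0.90 ± 0.16 (SE, adjusted p = 0.00449 from limma). *Foxp3* itself ranged from 2812 to 3313 in TNFR2+ and from 3292 to 4033 in TNFR2- Tregs (adjusted p = 0.232).

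Interferons are cytokines that warn cells of infection. Type I interferons bind a receptor of IFNAR1 and IFNAR2 chains and, through the kinases JAK1 and TYK2, form a complex that holds STAT2 and IRF9 and binds the interferon-stimulated response element (ISRE) in promoters. Interferon gamma binds IFNGR1 and IFNGR2, signals through JAK1 and JAK2, and acts on promoters through the gamma-activated site (GAS). The target genes encode RNA and DNA sensors, enzymes that block viral replication, GTPases that attack intracellular microbes, and transcription factors that extend the response. In T cells many of these genes are also transcribed at a tonic level without infection.

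Promoters are shown first, because the core of the ISRE or of the GAS can be read in 5 of the 6 below. They are those of the genes with the lowest adjusted p among genes that have an entry in the promoter table. *Oas2* and *Gbp4*, among the 5 genes called below, have none. RefSeq promoters (GRCm38.p6, from 250 bases before to 50 bases after the annotated start) were matched by symbol for 40 of the 52 genes. The ISRE core was searched as GAAANNGAAA on either strand, which reads TTTCNNTTTC on the other. The GAS core was searched as TTCNNNGAA, which reads the same on both strands. Capitals mark these matches, and each sequence runs 5′ to 3′ on the strand of its gene. *Irf1* and *Ifit2* have 2 annotated starts each. Of their windows the one with the most matches is shown, and the other held none. The windows are *Samhd1* at chr2:157135047-157135346 on the minus strand, *Irf1* at chr11:53769764-53770063 on the plus strand, *Ifit3* at chr19:34583279-34583578 on the plus strand, *Ifit2* at chr19:34550444-34550743 on the plus strand, *Slfn1* at chr11:83116570-83116869 on the plus strand and *Ddx58* at chr4:40239776-40240075 on the minus strand.
Samhd1: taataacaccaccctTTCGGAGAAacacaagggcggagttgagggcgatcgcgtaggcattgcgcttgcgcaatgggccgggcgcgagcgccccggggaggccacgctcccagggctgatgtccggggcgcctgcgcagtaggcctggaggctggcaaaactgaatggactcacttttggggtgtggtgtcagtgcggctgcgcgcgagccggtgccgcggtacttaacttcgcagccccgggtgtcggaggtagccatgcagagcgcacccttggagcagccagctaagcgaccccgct
Irf1: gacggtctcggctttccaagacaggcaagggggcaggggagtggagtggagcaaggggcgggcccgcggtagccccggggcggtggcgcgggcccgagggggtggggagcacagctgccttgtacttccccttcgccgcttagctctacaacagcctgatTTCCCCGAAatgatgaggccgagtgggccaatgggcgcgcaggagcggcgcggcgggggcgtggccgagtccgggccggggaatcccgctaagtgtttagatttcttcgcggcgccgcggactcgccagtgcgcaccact
Ifit3: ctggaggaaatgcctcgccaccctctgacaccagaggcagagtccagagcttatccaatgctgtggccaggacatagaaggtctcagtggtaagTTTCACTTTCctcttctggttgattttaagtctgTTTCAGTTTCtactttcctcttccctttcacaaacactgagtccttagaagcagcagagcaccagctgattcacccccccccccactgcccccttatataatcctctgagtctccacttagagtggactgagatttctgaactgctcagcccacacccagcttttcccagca
Ifit2: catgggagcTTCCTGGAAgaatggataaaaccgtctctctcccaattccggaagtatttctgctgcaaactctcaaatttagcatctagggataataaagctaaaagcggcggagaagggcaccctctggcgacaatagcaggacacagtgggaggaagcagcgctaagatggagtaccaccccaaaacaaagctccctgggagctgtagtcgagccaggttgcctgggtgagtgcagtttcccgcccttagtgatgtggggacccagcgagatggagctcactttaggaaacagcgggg
Slfn1: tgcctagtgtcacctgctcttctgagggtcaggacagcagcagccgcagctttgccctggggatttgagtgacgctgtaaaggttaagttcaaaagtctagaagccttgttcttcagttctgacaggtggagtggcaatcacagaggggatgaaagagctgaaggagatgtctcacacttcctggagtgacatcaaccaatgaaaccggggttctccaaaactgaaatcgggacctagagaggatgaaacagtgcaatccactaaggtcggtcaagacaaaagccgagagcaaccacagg
Ddx58: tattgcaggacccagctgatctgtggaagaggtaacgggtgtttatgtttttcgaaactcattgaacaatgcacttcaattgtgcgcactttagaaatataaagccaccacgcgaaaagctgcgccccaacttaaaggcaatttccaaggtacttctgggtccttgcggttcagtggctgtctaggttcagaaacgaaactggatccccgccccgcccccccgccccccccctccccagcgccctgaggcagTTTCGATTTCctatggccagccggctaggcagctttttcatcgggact

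In these windows a GAS core began 235 bases before the start of *Samhd1*, 90 bases before the start of *Irf1* and 241 bases before the start of *Ifit2*. *Ifit3* held 2 ISRE cores, 156 and 122 bases before its start. In *Ddx58* an ISRE core began 2 bases after the start. The *Slfn1* window held neither core.

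Shorter windows of 60 bases, picked after the values were seen, show genes with several ISRE cores close together. They are *Isg15* at chr4:156200856-156200915 on the minus strand, *Ifit1* at chr19:34640769-34640828 on the plus strand and *Oas1a* at chr5:120907508-120907567 on the minus strand.
Isg15: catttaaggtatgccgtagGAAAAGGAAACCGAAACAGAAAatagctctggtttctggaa
Ifit1: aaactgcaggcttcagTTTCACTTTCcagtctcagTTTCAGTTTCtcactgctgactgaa
Oas1a: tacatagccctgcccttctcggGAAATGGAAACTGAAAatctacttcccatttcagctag

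The *Isg15* window held 3 overlapping ISRE cores that began 78, 72 and 66 bases before the start. *Ifit1* held 2 separate cores, 104 and 85 bases before its start, and *Oas1a* held 2 overlapping cores, 20 and 14 bases before its start.

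Over the whole list, the cores were more common than among all genes. A gene was counted if a core lay at any of its annotated starts. An ISRE core was found for 22 of 40 genes of the list (55.0%), and for 1079 of 27025 genes with a promoter (3.99%). A GAS core was found for 11 of 40 genes (27.5%), and for 2582 of all 27025 (9.55%). A match is a description of the letters and not a binding site.

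Few interferon-stimulated genes passed the test, and most of the others had a log2 fold change below 0 without passing it. The genes lower in TNFR2+ Tregs at an adjusted p under 0.05 were *Samhd1*, *Oas2*, *Gbp4*, *Irf1* and *Ifit3*, that is 5 of 51 (9.80%), where 3.39% of all genes tested were lower. None of the 51 was higher, where 4.52% of all genes were, and 7.91% of all genes were called in either direction (limma). Before adjustment, p was under 0.05 for 14 lower and 3 higher genes of the 51, and for 10.7% (lower) and 12.3% (higher) of all genes. The log2 fold change was below 0 in 37 of 51 (72.5%), where it was below 0 in 50.7% of all genes. The median log2 fold change was -0.25 for these genes and -0.01 for all genes tested.

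**Figure D1:**
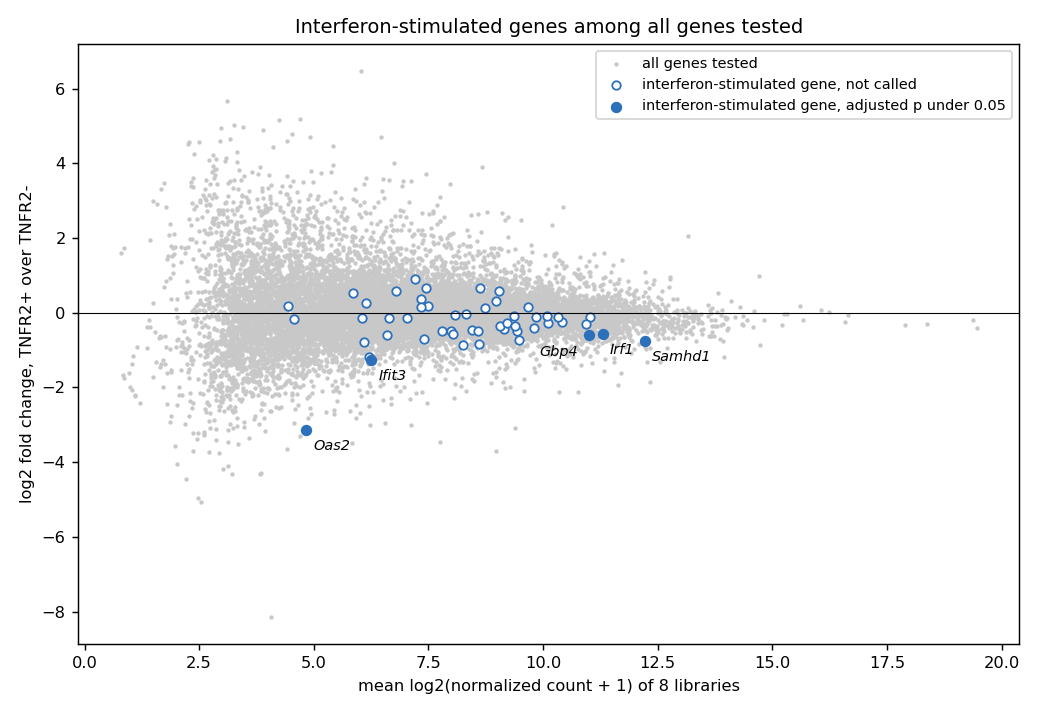
Log2 fold change of TNFR2+ over TNFR2- Tregs (vertical axis) against mean log2(normalized count + 1) of the 8 libraries (horizontal axis) for the 13990 genes tested, in grey, and the 51 interferon-stimulated genes, in blue. Most blue points lie below 0, and the 5 filled points are the genes with an adjusted p under 0.05.

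The groups did not overlap, every TNFR2+ library lying below every TNFR2- library, in 11 of the 51 genes, where this was so in 7.29% of all genes. *Oas1a* alone lay above in every library, where 8.08% of all genes did. Lack of overlap between 4 libraries and 4 fixes the exact two-sided permutation p over 70 relabellings at 0.0286, its smallest value. For these 12 genes that p restates the lack of overlap and adds no evidence. In bulk RNA, fewer cells with a transcript and less transcript per cell cannot be told apart.

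**Figure D2:**
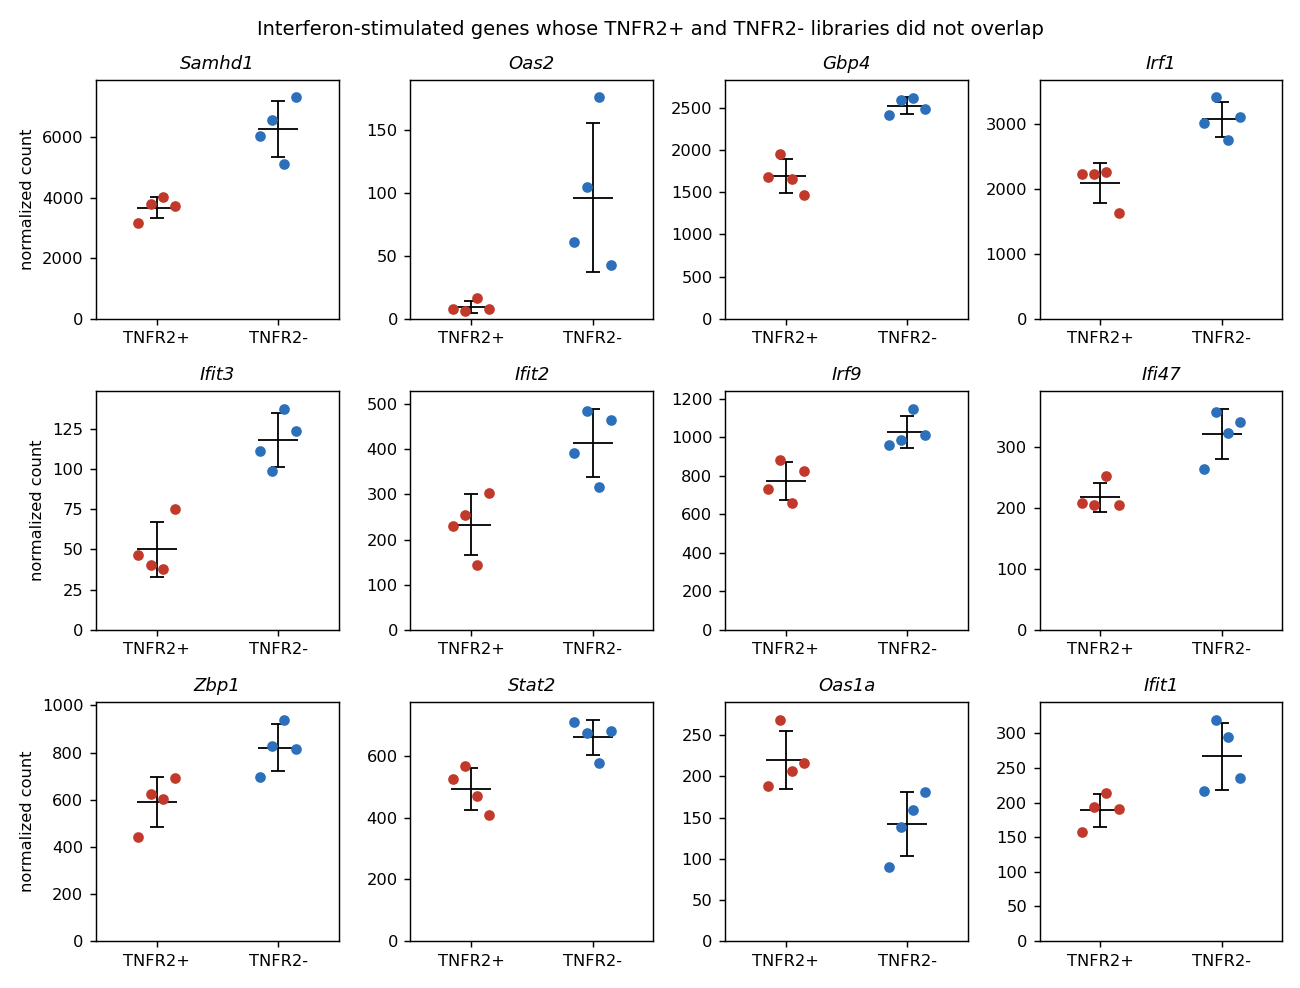
Normalized counts (vertical axis) of the 12 interferon-stimulated genes whose groups did not overlap, in TNFR2+ (red) and TNFR2- (blue) Tregs. Each point is 1 library, and the bars show the mean ± SD of 4 libraries. In 11 panels all red points lie below all blue points, and in the panel of *Oas1a* they lie above.

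Among signal transducers and transcription factors, all 4 genes had a log2 fold change below 0, with a median of -0.44. *Irf1* (chr11:53770014-53778374, GRCm38), a transcription factor induced most strongly by interferon gamma, had 2229, 2238, 2272 and 1633 normalized counts in TNFR2+ replicates 1 to 4. It had 3023, 3418, 2759 and 3120 in TNFR2- replicates 1 to 4. Its means were 2093 ± 307 and 3080 ± 272 (SD, n = 4 each), and its log2 fold change was -0.57 ± 0.13 (SE, adjusted p = 0.0194 from limma). The TNFR2+ libraries were all lower, with replicate 4 the lowest. The call was lost without TNFR2- replicate 2 (adjusted p = 0.0668), without the intensity trend (adjusted p = 0.113) and under quantile normalization (adjusted p = 0.0532).

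The DNA-binding subunit of the type I interferon complex, *Irf9*, had 731, 880, 657 and 825 normalized counts in TNFR2+ and 963, 985, 1150 and 1011 in TNFR2- libraries. The log2 fold change was -0.41 ± 0.14 (SE, adjusted p = 0.0992). *Stat2*, which partners IRF9 in that complex, had 527, 569, 473 and 410 in TNFR2+ and 712, 676, 580 and 682 in TNFR2- libraries. This gave a log2 fold change of -0.43 ± 0.16 (SE, adjusted p = 0.129). Neither gene overlapped between groups, and neither passed the test. *Irf7*, which amplifies type I interferon production, overlapped because TNFR2+ replicate 2 stood at 576 while the other 3 TNFR2+ libraries lay between 190 and 278 and TNFR2- libraries lay between 382 and 440.

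Nucleic acid sensors had a median log2 fold change of -0.13, with 4 of 5 below 0 and none called. *Ddx58*, which encodes the RNA sensor RIG-I, had 740, 502, 588 and 418 normalized counts in TNFR2+ and 850, 1254, 979 and 653 in TNFR2- libraries. Its log2 fold change was -0.72 ± 0.22 (SE, adjusted p = 0.0636), and the groups overlapped only through TNFR2+ replicate 1 and TNFR2- replicate 4. Of the 8 fits that left out a library it was called in 2, those without 1 or the other of them (adjusted p = 0.0475 and 0.0339). Dropping a library that makes the overlap favours a lower p, so these 2 calls add no evidence. With array weights the adjusted p was 0.0455. *Zbp1*, a sensor of Z-form nucleic acids that can trigger cell death, had 443, 622, 601 and 692 in TNFR2+ and 697, 828, 939 and 816 in TNFR2- libraries. Its groups touched without overlap, with 692 against 697 as the closest libraries, and its log2 fold change was -0.49 ± 0.17 (SE, adjusted p = 0.106). The RNA-activated kinase *Eif2ak2* was the sensor with a positive log2 fold change, 0.31 (adjusted p = 0.497). For *Ifih1*, the sensor MDA5, and *Dhx58*, its relative LGP2, the log2 fold changes were -0.09 and -0.13, and each changed sign when single libraries were left out.

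The oligoadenylate synthetases, which activate RNase L in response to viral RNA, did not share a direction. *Oas2* (chr5:120730333-120749853, GRCm38) was the gene of the list with the lowest log2 fold change. It had 7.66, 5.86, 16.3 and 7.30 normalized counts in TNFR2+ and 60.6, 105, 176 and 42.8 in TNFR2- replicates 1 to 4. Its means were 9.28 ± 4.75 and 95.9 ± 59.1 (SD, n = 4 each), so that TNFR2+ Tregs held 0.0968 of the TNFR2- level. The log2 fold change was -3.13 ± 0.57 (SE, adjusted p = 0.00484 from limma). The TNFR2+ mean was under the minimum of 10, and the gene entered the test only through its TNFR2- libraries. The size of its fold change therefore rests on TNFR2+ values near the floor. The TNFR2- libraries differed widely among themselves, yet the lowest of them was above the highest TNFR2+ library. The gene was called in all 8 fits that left out a library and in the 10 other alternatives.

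*Oas1a* went the other way, with 188, 269, 206 and 216 normalized counts in TNFR2+ and 90.3, 139, 159 and 182 in TNFR2- libraries. TNFR2+ Tregs were above by 0.65 ± 0.26 on the log2 scale (SE, adjusted p = 0.156). Its transcript has a near-identical copy in *Oas1g*, and the sum of both genes differed by 0.48 on the log2 scale. *Oas3* had 108, 258, 252 and 191 in TNFR2+ and 184, 193, 153 and 149 in TNFR2- libraries, and the groups overlapped (log2 fold change 0.18, adjusted p = 0.759). The OAS-like gene *Oasl2* had 26.3, 88.4, 46.6 and 48.8 in TNFR2+ and 70.5, 204, 114 and 91.7 in TNFR2- libraries. The log2 fold change of *Oasl2* was -1.19 ± 0.44 (SE, adjusted p = 0.119), with an overlap made by TNFR2+ replicate 2 and TNFR2- replicate 1. *Oasl1* was low in both groups, with a mean of 23.8 in TNFR2+ and 24.4 in TNFR2- Tregs.

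IFIT proteins bind viral RNA that lacks the host cap. All 3 IFIT genes of the 52 lay lower in TNFR2+ Tregs without overlap between groups, where 7.29% of all genes did. Their median log2 fold change was -0.86. Of a second list described below, *Ifit1bl1*, *Ifit1bl2* and *Ifit3b* overlapped between groups (log2 fold changes -0.78, -0.69 and -0.38). *Ifit3* (chr19:34583531-34588731, GRCm38) had 46.2, 40.2, 38.0 and 75.3 normalized counts in TNFR2+ and 111, 98.5, 137 and 124 in TNFR2- libraries. Its means were 49.9 ± 17.3 and 118 ± 16.7 (SD, n = 4 each), and its log2 fold change was -1.26 ± 0.33 (SE, adjusted p = 0.0353 from limma). The call was near the threshold. It held in 1 of the 8 fits that left out a library, with an adjusted p between 0.0248 and 0.0945, and was lost at a minimum mean of 1 (adjusted p = 0.0527). The near-identical *Ifit3b* can share its reads, and the sum of both genes was 60.9 ± 21.7 in TNFR2+ and 127 ± 13.8 in TNFR2- Tregs.

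*Ifit2* had 230, 255, 144 and 304 normalized counts in TNFR2+ and 391, 484, 317 and 465 in TNFR2- libraries, with a log2 fold change of -0.86 ± 0.25 (SE, adjusted p = 0.0527). *Ifit1* had 157, 193, 214 and 191 in TNFR2+ and 217, 320, 295 and 236 in TNFR2- libraries, with a log2 fold change of -0.49 ± 0.22 (SE, adjusted p = 0.202). Both genes lay lower in each TNFR2+ library than in any TNFR2- library, and neither passed the test over all genes. *Ifit2* passed it with array weights, under quantile normalization and at a minimum mean of 50 (adjusted p = 0.0467, 0.0460 and 0.0446). Of the 8 fits that left out a library it passed in 2, without TNFR2+ replicate 4 or TNFR2- replicate 3 (0.0385 and 0.0351). These are the libraries nearest to the other group, so the 2 calls add no evidence.

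The ISG15 system, in which the ubiquitin-like protein ISG15 is conjugated to other proteins, had no called gene and a median log2 fold change of -0.03. *Isg15* itself had 53.6, 82.1, 87.1 and 87.5 normalized counts in TNFR2+ and 48.3, 34.8, 118 and 82.4 in TNFR2- libraries, so the TNFR2- libraries spanned the whole TNFR2+ range. *Usp18*, which removes ISG15 and dampens the type I receptor, had 71.1, 173, 127 and 186 in TNFR2+ and 126, 258, 168 and 388 in TNFR2- libraries. The groups overlapped, and the log2 fold change was -0.71 ± 0.38 (SE, adjusted p = 0.289). *Herc6*, the mouse ISG15 ligase, had 270, 339, 356 and 306 in TNFR2+ and 370, 257, 326 and 349 in TNFR2- libraries, and its log2 fold change of -0.03 had a 95% interval from -0.45 to 0.39 and changed to 0.06 when libraries were scaled to their sum.

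Antiviral effectors were led by *Samhd1* (chr2:157097533-157135265, GRCm38), a triphosphohydrolase that lowers the nucleotide pool available to viral polymerases and the gene of the list with the lowest adjusted p. It had 3173, 3783, 4031 and 3713 normalized counts in TNFR2+ and 6039, 6571, 5108 and 7316 in TNFR2- replicates 1 to 4. The means were 3675 ± 361 and 6258 ± 929 (SD, n = 4 each), a ratio of 0.587. The log2 fold change was -0.76 ± 0.13 (SE, adjusted p = 0.00263 from limma). Every TNFR2+ library was lower, and the gene was called in all 8 fits that left out a library. Without the intensity trend its adjusted p was 0.0559.

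*Cmpk2*, a mitochondrial nucleotide kinase next to *Rsad2* in the genome, had 26.7, 55.4, 56.1 and 81.3 normalized counts in TNFR2+ and 83.3, 131, 64.9 and 89.0 in TNFR2- libraries. At -0.79 ± 0.40 (SE, adjusted p = 0.263), its log2 fold change was larger in size than that of *Samhd1* but with a wider error. The other 5 tested effectors, *Rsad2*, *Isg20*, *Trim30a*, *Mx1* and *Bst2*, had log2 fold changes between -0.15 and 0.53, and their adjusted p lay between 0.469 and 0.861. *Ifitm3*, which blocks viral entry from endosomes, was too low to be tested. TNFR2+ libraries were all listed at 0, and TNFR2- replicates 1 to 4 had 12.3, 2.11, 1.13 and 8.33 normalized counts.

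The neighbours *Parp9*, *Dtx3l* and *Parp14*, which modify proteins with ADP-ribose and ubiquitin, differed little. *Parp14* had 1943, 2064, 2005 and 2034 normalized counts in TNFR2+ and 2275, 2573, 2133 and 1810 in TNFR2- libraries, and its log2 fold change was -0.12 (95% interval -0.39 to 0.15). *Dtx3l* had 1138, 1452, 1194 and 1248 in TNFR2+ and 1460, 1517, 1379 and 1635 in TNFR2- libraries, a log2 fold change of -0.25 ± 0.13 (SE, adjusted p = 0.255). *Parp9* had a log2 fold change of 0.12.

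Interferon-inducible GTPases, the guanylate-binding proteins and immunity-related GTPases that act on vacuoles of intracellular microbes, all had a log2 fold change below 0. The median of the 8 was -0.42. *Gbp4* (chr5:105115767-105139586, GRCm38) had 1681, 1951, 1661 and 1469 normalized counts in TNFR2+ and 2410, 2590, 2622 and 2490 in TNFR2- libraries. The means were 1691 ± 198 and 2528 ± 96.5 (SD, n = 4 each), and the log2 fold change was -0.59 ± 0.12 (SE, adjusted p = 0.00838 from limma). The 4 TNFR2- libraries stood close together, and all lay well above the TNFR2+ libraries. The call held in all 8 fits that left out a library, and the adjusted p without the intensity trend was 0.0727.

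*Ifi47*, also called IRG-47, had 208, 205, 253 and 205 normalized counts in TNFR2+ and 263, 358, 324 and 342 in TNFR2- libraries, with a log2 fold change of -0.56 ± 0.20 (SE, adjusted p = 0.103). Its groups did not overlap. The other 6 GTPases, *Irgm1*, *Iigp1*, *Gbp2*, *Igtp*, *Gbp7* and *Gbp3*, had log2 fold changes between -0.50 and -0.10, with adjusted p from 0.231 to 0.769 and overlapping groups.

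The Schlafen genes, some of which act in T cell quiescence and translation, also had 4 of 4 log2 fold changes below 0 (median -0.31) and no call. *Slfn1* had 284, 305, 241 and 328 normalized counts in TNFR2+ and 502, 575, 313 and 792 in TNFR2- libraries. Its log2 fold change was -0.84 ± 0.25 (SE, adjusted p = 0.0591), and TNFR2- replicate 3 was the library within the TNFR2+ range. Without that library the adjusted p was 0.00756, the 1 call in the 8 fits that left out a library. Dropping the library that overlaps favours a lower p, so that call adds no evidence. With array weights the adjusted p was 0.0342. *Slfn2*, whose loss breaks quiescence in mouse T cells, had 1086, 1157, 865 and 905 in TNFR2+ and 1140, 1205, 982 and 1577 in TNFR2- libraries (log2 fold change -0.28, adjusted p = 0.351). *Slfn5* and *Slfn8* had log2 fold changes of -0.34 and -0.10, and that of *Slfn8* was 0.01 without TNFR2- replicate 2.

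The 9 remaining genes held no call, and 5 of them had a log2 fold change above 0. *Ifi27l2a*, a small hydrophobic protein, had 592, 851, 522 and 653 normalized counts in TNFR2+ and 424, 438, 357 and 522 in TNFR2- libraries. Its log2 fold change was 0.58 ± 0.19 (SE, adjusted p = 0.0846), and 522 was both the lowest TNFR2+ and the highest TNFR2- value to 3 digits. *Lgals3bp*, a secreted galectin-binding glycoprotein, had 425, 546, 541 and 476 in TNFR2+ and 238, 324, 460 and 277 in TNFR2- libraries. Its log2 fold change was 0.65 ± 0.22 (SE, adjusted p = 0.0857), with TNFR2- replicate 3 as the library that overlapped. Without that library the adjusted p was 0.0185, the 1 call in the 8 fits that left out a library, which adds no evidence for the same reason as for *Slfn1*.

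*Tor3a*, a torsin ATPase, had the highest log2 fold change of the list, 0.89 ± 0.54 (SE, adjusted p = 0.355). It had 289, 340, 280 and 58.2 normalized counts in TNFR2+ and 123, 59.9, 226 and 79.4 in TNFR2- libraries, so TNFR2+ replicate 4 was the lowest of all 8. Without that library the adjusted p was 0.0457, the 1 call in the 8 fits that left out a library, and it too adds no evidence. *Ifi203*, a DNA-binding protein of the AIM2-like family, had 1565, 2560, 1879 and 1321 in TNFR2+ and 2028, 2454, 2139 and 2101 in TNFR2- libraries, and both the highest and the lowest library were TNFR2+. Its reads can be shared with *Mndal* and *Ifi203-ps*. The other 5, *Xaf1*, *Phf11b*, *Ifi35*, *Ifi44* and *Rtp4*, had log2 fold changes between -0.60 and 0.59.

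**Figure D3:**
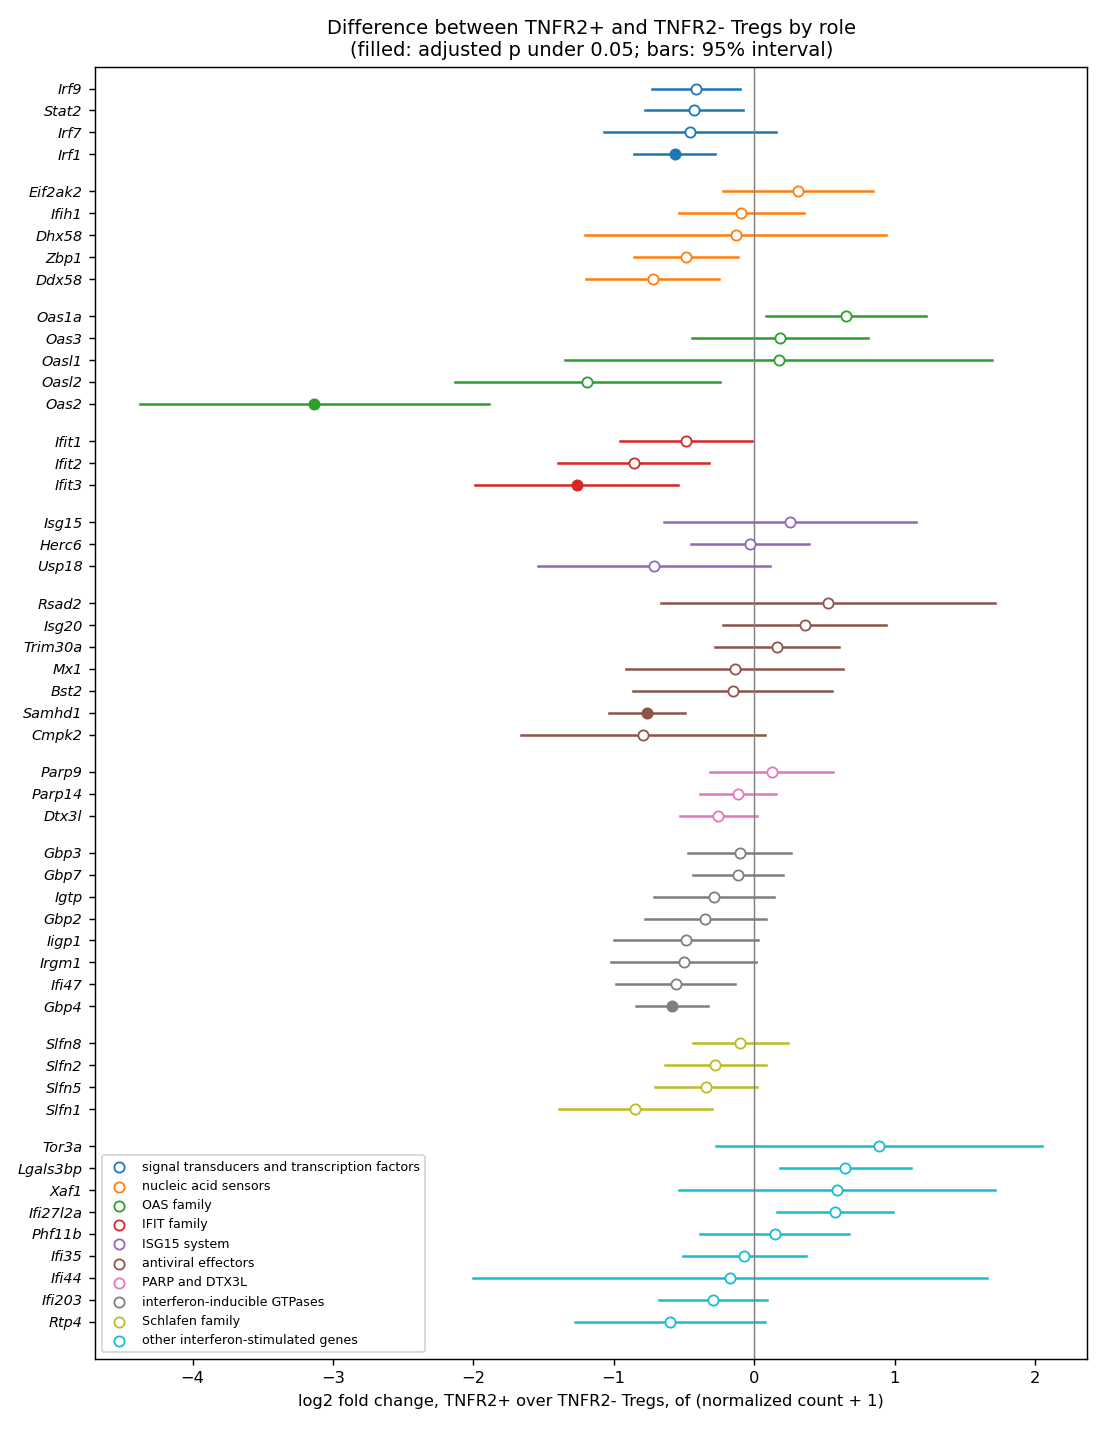
Log2 fold change of TNFR2+ over TNFR2- Tregs (horizontal axis) for the 51 interferon-stimulated genes tested, grouped by role, with 95% intervals as bars. Filled points have an adjusted p under 0.05, and all of them lie below 0. All points of the transcription factor, IFIT, GTPase and Schlafen blocks lie below 0, while the OAS block runs from -3.13 to 0.65.

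The genes differed widely in level. Per kilobase of exon, the highest in TNFR2- Tregs were *Ifi27l2a* (940 normalized counts per kilobase), *Irf1* (775), *Slfn2* (737), *Samhd1* (684) and *Gbp4* (337). In TNFR2+ Tregs the same 5 genes stood at 1413, 526, 603, 402 and 226 per kilobase. Thus *Irf1*, *Samhd1* and *Gbp4*, which were among the genes called, were also among the most abundant of the list in TNFR2- Tregs, and *Oas2* was among the least, at 21.6 per kilobase in TNFR2- and 2.09 in TNFR2+ Tregs. The lowest gene of the list in TNFR2- Tregs was *Ifi44*, at 5.05 per kilobase.

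The receptors and kinases upstream of these genes were not uniform. Of 9 listed, 8 were tested, 1 was higher and 2 were lower in TNFR2+ Tregs, where 4.52% of all genes were higher and 3.39% were lower. *Ifngr2*, the signalling chain of the interferon gamma receptor, had 172, 218, 263 and 297 normalized counts in TNFR2+ and 461, 561, 472 and 628 in TNFR2- libraries, with a log2 fold change of -1.17 ± 0.21 (SE, adjusted p = 0.00444 from limma). All TNFR2+ libraries were lower, with no overlap. *Jak1*, the kinase used by both receptors, had 6865, 7028, 6109 and 6671 in TNFR2+ and 9499, 10694, 8312 and 10866 in TNFR2- libraries (log2 fold change -0.56 ± 0.11, SE, adjusted p = 0.00664).

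*Jak2*, the second kinase of the interferon gamma receptor, was higher in every TNFR2+ library. It had 4023, 4056, 4020 and 3471 normalized counts in TNFR2+ and 3200, 2512, 2955 and 2129 in TNFR2- libraries (log2 fold change 0.54 ± 0.13, SE, adjusted p = 0.0250). *Ifngr1*, the ligand-binding chain, had means of 1620 ± 230 and 2405 ± 497 (SD, n = 4 each) and a log2 fold change of -0.55 ± 0.17 (SE, adjusted p = 0.0591). Its groups overlapped through TNFR2- replicate 1, at 1721 normalized counts. The chains of the type I receptor did not pass the test, with log2 fold changes of -0.03 for *Ifnar1* (95% interval -0.33 to 0.27) and 0.24 for *Ifnar2* (95% interval -0.14 to 0.62). For *Tyk2* the log2 fold change was 0.24 (adjusted p = 0.424).

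**Figure D4:**
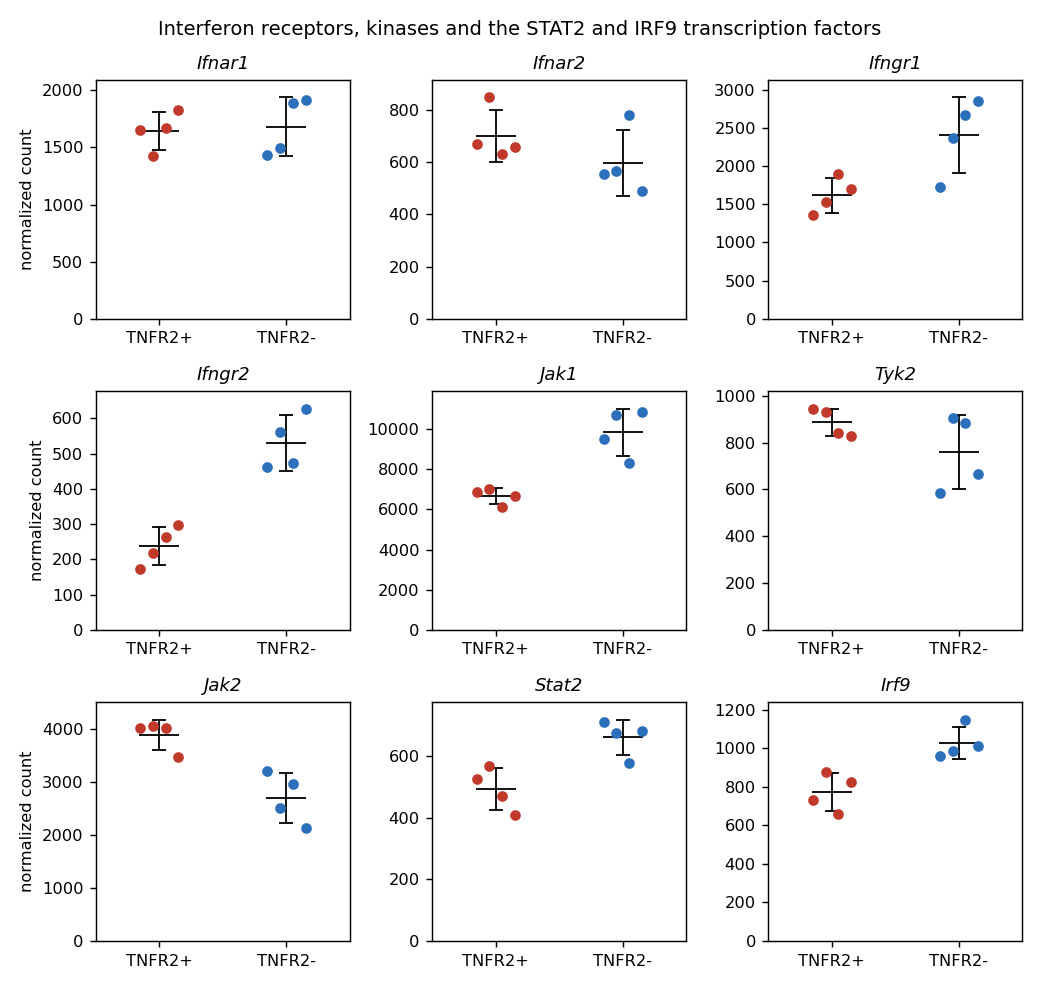
Normalized counts (vertical axis) of interferon receptor chains, kinases and the transcription factors STAT2 and IRF9 in TNFR2+ (red) and TNFR2- (blue) Tregs. Each point is 1 library, and the bars show the mean ± SD of 4 libraries. *Ifngr2*, *Jak1*, *Stat2* and *Irf9* lie lower and *Jak2* lies higher in every TNFR2+ library, and the other 4 genes overlap.

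Of 11 tested genes of the sensing pathways that induce interferon none was called in limma, where 7.91% of all genes were. Before adjustment (p under 0.05) 2 were higher and 1 lower, where 12.3% and 10.7% of all genes were.

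Among 8 negative regulators 1 was called, where 7.91% of all genes were. *Cish*, a STAT5-induced inhibitor of cytokine receptors, was higher in TNFR2+ Tregs, with means of 1962 ± 255 and 1203 ± 133 (SD, n = 4 each) and a log2 fold change of 0.70 ± 0.14 (SE, adjusted p = 0.00749). *Socs1* and *Socs3*, the feedback inhibitors of interferon and STAT3 signals, had log2 fold changes of -0.03 (95% interval -0.60 to 0.54) and -0.11 (95% interval -0.56 to 0.35). Of 12 interferon genes only *Ifng* was in the table. It had 104, 178, 119 and 209 normalized counts in TNFR2+ and 79.9, 95.6, 131 and 55.0 in TNFR2- libraries, and its log2 fold change was 0.76 ± 0.34 (SE, adjusted p = 0.207).

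A second list of 78 interferon-stimulated genes outside the 52 was described in the same way. It was chosen with results of these same libraries known, so it is not an independent check. Some of its genes are near-identical copies of members and can share their reads, such as *Mndal* for *Ifi203*. Of these, 73 were in the table and 67 were tested. The genes lower in TNFR2+ Tregs numbered 11 (16.4%, where 3.39% of all genes were lower), and 1 was higher. The log2 fold change was below 0 in 48 of 67 (71.6%), with a median of -0.29, close to the median of the 51 genes. Before adjustment, p was under 0.05 for 21 lower and 7 higher genes. These shares over all genes were 10.7% and 12.3%. Groups did not overlap for 19 lower and 6 higher genes, where 7.29% and 8.08% of all genes did not.

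The lower genes of this second list belonged to several families. Among GTPases they were *Tgtp1*, with 170, 130, 122 and 77.3 normalized counts in TNFR2+ and 232, 373, 459 and 281 in TNFR2- libraries (log2 fold change -1.43 ± 0.29, SE, adjusted p = 0.00925 from limma), *Tgtp2* (-0.93), *Gbp6* (-0.58) and the very large GTPase *Gvin1* (-0.49). Among AIM2-like DNA-binding genes they were *Ifi213*, with 235, 331, 346 and 506 in TNFR2+ and 1118, 1085, 881 and 865 in TNFR2- libraries (log2 fold change -1.52 ± 0.22, SE, adjusted p = 0.00110), *Ifi206* (-1.03) and *Mndal* (-0.40). The remaining lower genes were the ubiquitin ligases *Rnf213* (-0.68) and *Trim25* (-0.89), the ADP-ribosyltransferase *Parp10* (-0.72) and the nuclear body gene *Sp100* (-0.48), each with the log2 fold change in parentheses.

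The higher gene was *Casp4*, which encodes the inflammatory caspase-11 and responds to lipopolysaccharide in the cytosol. It had 948, 939, 937 and 698 normalized counts in TNFR2+ and 408, 216, 434 and 215 in TNFR2- libraries, and its log2 fold change was 1.53 ± 0.25 (SE, adjusted p = 0.00230 from limma). In every TNFR2+ library it was above every TNFR2- library.

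The libraries of a group did not move evenly over the 51 genes. The mean log2(normalized count + 1) over the 51 was 7.97, 8.38, 8.27 and 8.04 in TNFR2+ replicates 1 to 4 and 8.29, 8.55, 8.40 and 8.46 in TNFR2- replicates 1 to 4. The groups overlapped on this scale, since TNFR2+ replicate 2 lay above TNFR2- replicate 1. TNFR2+ replicate 1 was the lowest TNFR2+ library in 25 of 51 genes, and TNFR2+ replicate 2 was the highest in 23 and the lowest in 1. Among TNFR2- libraries, replicate 2 was the highest in 21 genes. The median deviation of the 51 genes from the group mean lay between -0.15 and 0.15. That of all 13990 genes lay between -0.0011 and 0.018 in every library, but the normalization itself holds it near 0. A set as small as 51 genes also varies more, so no contrast is drawn.

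**Figure D5:**
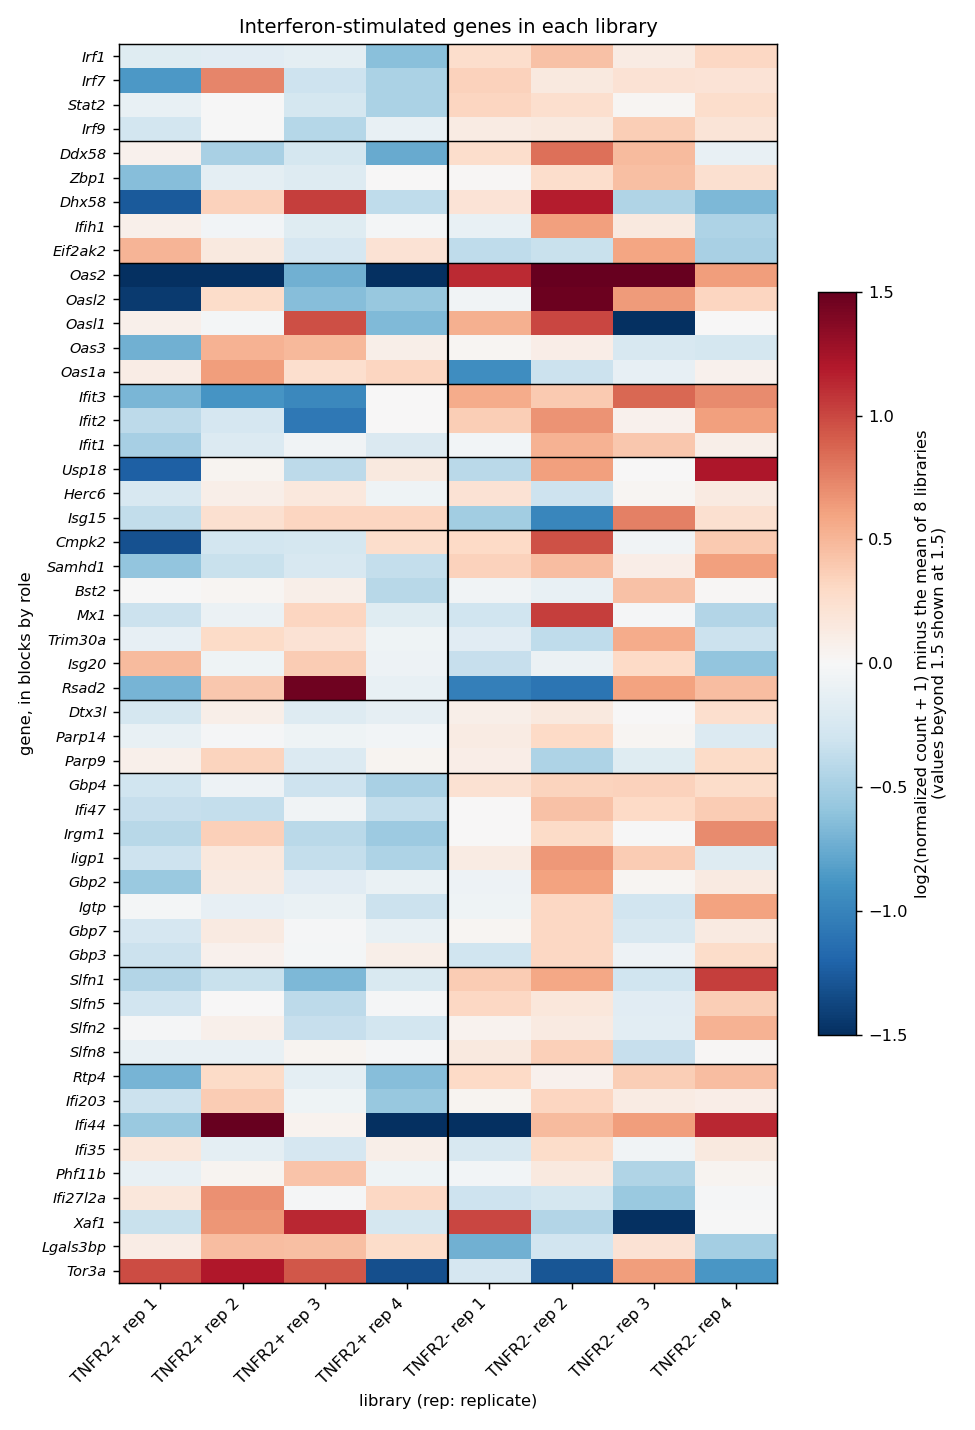
Deviation of log2(normalized count + 1) from the mean of the 8 libraries (colour) for the 51 genes tested (rows, in blocks by role) in each library (columns, TNFR2+ left and TNFR2- right of the line). The left side is mostly blue and the right side mostly red. TNFR2+ replicate 1 was the lowest TNFR2+ library in 25 of the 51 rows.

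Left out in turn, single libraries changed the counts of called genes, while the median log2 fold change stayed below 0 in each of the 8 fits. The number of the 51 genes called lower ran from 3 (without TNFR2- replicate 2) to 6, and the number below 0 ran from 34 to 37 over the alternatives that tested the same 51 genes. The median log2 fold change ran from -0.33 without TNFR2+ replicate 2 to -0.15 without TNFR2+ replicate 4. Without TNFR2- replicate 3, the library that stood apart, *Samhd1*, *Oas2*, *Gbp4*, *Irf1*, *Ifit2* and *Slfn1* were lower, *Lgals3bp* was higher, and the median was -0.30. Without TNFR2+ replicate 4, *Tor3a* was the gene called higher.

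Genes with and without an ISRE core in the promoter were both mostly below 0. Of 21 tested genes with an ISRE core, 14 had a log2 fold change below 0, the median was -0.12, and *Ifit3* was the 1 gene called. Of 18 tested genes without it, 14 were below 0, the median was -0.35, and 2 were called, *Samhd1* and *Irf1*. Of 10 tested genes with a GAS core, 7 were below 0 and the median was -0.13, and of 29 without it 21 were below 0 and the median was -0.28. These are descriptions, and the difference between the sets was not tested.

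Markers of other cell types were read in the same libraries. Markers of plasmacytoid dendritic cells, cells known for making type I interferon, were in the table for 9 of 12 genes. They summed to 2099 to 3169 normalized counts in TNFR2+ and 1414 to 1825 in TNFR2- libraries, mostly from *Pacsin1* (means 1088 and 771) and *Runx2* (1003 and 395). Of the tested genes 5 had a positive and 3 a negative log2 fold change. Without overlap, *Il3ra* (means 89.3 and 27.7) and *Pacsin1* lay higher and *Ccr9* (10.1 and 40.2) lay lower. Over all genes, 8.08% lay higher and 7.29% lower without overlap. That list holds *Bst2*, which is also among the 52, and its defining gene *Siglech* lay at 16.1 to 69.4 and 40.5 to 114. None of its 8 tested genes was called in limma. Before adjustment (p under 0.05) 3 were higher and 1 lower, where 12.3% and 10.7% of all genes were. Markers of monocytes, macrophages and dendritic cells (9 of 20) summed to 489 to 592 and 487 to 640, and their genes differed in direction. *Xcr1* was lower in TNFR2+ Tregs (log2 fold change -0.83, adjusted p = 0.0498 from limma), *Itgam* (means 6.22 and 15.1) lay lower and *Cst3* (197 and 146) higher without overlap and without a call, and *Csf1r* was at 0 throughout TNFR2+ Tregs and at 0, 0, 9.19 and 5.87 in TNFR2- replicates 1 to 4.

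B cell markers (10 of 15) summed to 4020 to 6130 in TNFR2+ and 1815 to 3134 in TNFR2- libraries, mostly from *Ighm*, which was higher in TNFR2+ Tregs (log2 fold change 1.27, adjusted p = 0.000745). Of 7 tested B cell markers 6 had a positive log2 fold change, and *Cd22* did not overlap between groups (means 309 and 150, adjusted p = 0.0612), while *Cd79a*, too low to be tested, lay between 0 and 6.10. Neutrophil markers (5 of 10) summed to 172 to 323 and 175 to 482. Markers of NK and cytotoxic cells (8 of 12) summed to 184 to 323 and 80.2 to 288. Of 4 tested, 3 had a positive and 1 a negative log2 fold change (*Prf1*, -1.09, means 6.92 and 23.4). The 1 gene called was *Nkg7*, where 4.52% of all genes were called higher. It was higher in TNFR2+ Tregs, with means of 64.3 ± 19.3 and 7.83 ± 7.29 (SD, n = 4 each, adjusted p = 0.00927 from limma). CD8 T cell markers (2 of 2) summed to 46.0 to 64.2 and 44.5 to 76.1, erythroid markers (1 of 9) to at most 12.1 and 10.6, and platelet markers (1 of 6) to 12.2 to 221 and 31.2 to 178. Treg and T cell markers (10 of 10) summed to 36978 to 43432 in TNFR2+ and 29222 to 34955 in TNFR2- libraries. The part of these cells in the differences of the interferon-stimulated genes was not tested.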

How the data were processed

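RNA of sorted TNFR2+ and TNFR2- Tregs (4 libraries each, from spleens of Foxp3 YFP-cre mice) was sequenced by the authors from SMARTer stranded total RNA libraries. Per the submitters' processing notes and the study's methods, reads were checked with FastQC 0.11.8, trimmed with Trim Galore, quantified with Salmon 1.3.0 on the Ensembl GRCm38 transcriptome and normalized with DESeq2 1.28 in R 4.0. What the authors deposited is this normalized signal for each gene, called normalized counts here. It is neither whole numbers nor on a log scale. How transcripts were summed to genes, and any filter on genes, is not given in the sources used here. In 2806 genes whose only annotated transcript exceeds 1500 bases, 69.7% to 96.5% of low values (up to 12) lay within 0.1 of whole multiples of a step, where 20% would by chance. This step was used to estimate the depth of each library. Reads of genes with several transcripts could not be recovered, so no model of counts was fitted. Depth sets counting error only.

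Symbols and coordinates came from GENCODE M21 (GRCm38), with 20008 of 20172 identifiers matched. The 13990 genes whose mean over the 8 libraries was 10 or more were tested on log2(normalized count + 1) with limma 3.58.1 in R 4.3.3 (intensity trend, two-sided, Benjamini-Hochberg adjustment over all genes tested, threshold 0.05). Fold changes are TNFR2+ over TNFR2- on that scale, which understates the changes of low genes. For single genes an exact permutation test (two-sided, 70 relabellings) was run as well. Levels of different genes were compared per kilobase of merged exons.

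The members, their roles and all lists were chosen with earlier results of these data known. Values of every library were given for members with an adjusted p under 0.05 or without overlap between groups, and for the member of each role with the highest mean or the largest absolute log2 fold change. Other members were named where they had the 2 lowest adjusted p of a role, and the rest are given by ranges or were named after their values were seen. Pathway genes were named from a set list, of which 1 is not reported here, or by an adjusted p under 0.05, some with means or fold changes only. Near-identical copies were searched among transcripts at 95% identity over 50% of the length, and 9 of 52 members had one. Promoters were RefSeq windows of 300 bases (GRCm38.p6). The alternatives were pseudocounts of 0.5 and 4, minimum means of 1 and 50, no intensity trend, 3 other scalings, array weights, a replicate block and leaving out each library. The procedure was tested on simulated data. Plots were drawn in python 3.11.15 with matplotlib 3.10.9.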

Additional observations from a re-analysis of the deposited data

Results flagged for a closer look

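In 6 of 103 groups of 4 libraries (5.83%) the highest or lowest value of an interferon-stimulated gene was set apart from the other 3 by a gap that took most of the group's range, and chance gives about 1 in 20. *Irf1* was at 1633 normalized counts in TNFR2+ replicate 4, below the other TNFR2+ libraries, which lay between 2229 and 2272. *Ifi47* was at 253 in TNFR2+ replicate 3, while the other 3 lay between 205 and 208. *Isg15* was at 53.6 in TNFR2+ replicate 1, where the others lay between 82.1 and 87.5. *Irgm1* was at 488 in TNFR2+ replicate 2, where the others lay between 261 and 288. TNFR2- replicate 3, the library that stood apart over all genes, was high for *Eif2ak2* at 751, against 355 to 395 in the others, and for *Trim30a* at 1204, against 628 to 726.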

How the results depend on the processing

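The main counts were 5 interferon-stimulated genes lower and 0 higher, 11 lower and 1 higher in the second list, and 474 lower and 633 higher over all genes. With array quality weights 8 members were lower and 1 higher, and 2 of the second list were higher. Without the intensity trend 2 members (*Oas2* and *Ifit3*), 1 of the second list and 182 of all genes were lower, and 283 of all genes were higher. Scaled to the sum without mitochondrial genes, *Gm26917* and *Gm42418*, 1 member was higher (*Ifi27l2a*), 3 of the second list were higher and 7 lower, and all genes split into 834 higher and 358 lower, with a median over all genes of 0.08. A minimum mean of 1 and quantile normalization each gave 3 higher genes of the second list. Leaving out a library gave 3 to 6 lower and 0 to 1 higher members, 5 to 9 lower and 1 to 3 higher genes of the second list, and 278 to 540 lower and 344 to 761 higher genes in all. The cause was not tested.

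With the replicate block 7 members were lower (*Ddx58*, *Ifit2* and *Slfn1* gained, *Ifit3* lost at an adjusted p of 0.0546), 3 of the second list were higher, and 508 of all genes were lower and 675 higher. Whether same-numbered libraries were paired is not stated. Their deviations correlated between -0.039 and 0.00054, and no library correlated best with its own number. This does not decide the question, since a shared origin need not show in deviations over all genes. Of the 51 members, 41 kept the sign of the log2 fold change in every fit that left out a library and 47 in every other alternative. Array weights gave *Oasl1* -0.042 and *Ifi44* 0.15, and scaling to the sum gave *Herc6* 0.059 and *Ifi35* 0.019. Leaving out a library gave ranges of -0.26 to 0.10 for *Ifih1*, -0.50 to 0.27 for *Dhx58*, -0.43 to 0.54 for *Oasl1*, -0.031 to 0.55 for *Isg15*, -0.14 to 0.046 for *Herc6*, -0.31 to 0.18 for *Mx1*, -0.0088 to 0.24 for *Parp9*, -0.23 to 0.0069 for *Slfn8*, -0.16 to 0.013 for *Ifi35* and -0.84 to 0.39 for *Ifi44*. Depth limits low genes such as *Ifi44*, *Oasl1* and *Ifitm3* most.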

Other observations

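Within groups, families differed in the correlation of their genes from library to library. The mean pairwise Pearson correlation was taken over the deviations of the 8 libraries from their group means. It was 0.57 for the 4 Schlafen genes, 0.41 for the 8 GTPases, 0.30 for the 3 genes of the ISG15 system and 0.02 for the 3 IFIT genes. For *Parp9*, *Dtx3l* and *Parp14* it was -0.07, and the other roles lay between 0.09 and 0.21. It was 0.12 for the 51 interferon-stimulated genes and 0.00044 for all genes tested. The normalization holds this last value near 0, and sets of few genes vary more, so no contrast is drawn. These values describe 8 libraries that the genes share, with no test, and near-identical copies can share reads.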
